A study of Homo sapiens with 12 samples.

Results

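The mitochondrial genome transcripts were the 37 rows of the count tables whose symbol begins with MT-, out of 58735 rows in all. They comprised 13 mRNAs, 2 rRNAs and 22 tRNAs, which are all 37 genes that GENCODE release 29 places on the mitochondrial chromosome. The cells were MDA-MB-468, a human triple-negative breast cancer line, and polyadenylated RNA was sequenced from 12 libraries, 3 per group and lettered A, B and C. Each of the 3 treated groups was set against DMSO vehicle. The first group received docetaxel, a drug that stabilises microtubules, at 10 nM for 8 h, and the second received docetaxel at 10 nM for 24 h. The third, the combination group, received tazemetostat, an inhibitor of the histone methyltransferase EZH2, and ipatasertib, an inhibitor of the kinase AKT, each at 5 µM for 24 h. For the combination arm tazemetostat or DMSO was held for 5 days beforehand, and serum was at 2%. The 3 DMSO libraries carry no stated hours, serum level or plate size, docetaxel cells were grown in 10 cm plates and combination cells in 6 cm plates, and neither drug of the combination was tested alone, so these conditions and the treatments cannot be told apart. The labels do not say whether the letters are separate cultures, so p-values here speak only of the spread from library to library, and that spread may be technical.

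Libraries held 29820617 to 45807059 counts. Levels are given as CPM, counts scaled to the TMM-adjusted size of the library. Genes were tested with the quasi-likelihood method of edgeR, p-values were adjusted by Benjamini-Hochberg over the 17780 genes that passed a filter on low counts, and the threshold was 0.05. The epithelial markers of the line summed to 8476 to 12982 CPM in every library. The 7 fibroblast markers summed to 13 to 14.3 CPM at 8 h of docetaxel, 17.6 to 20.5 CPM at 24 h and 27.5 to 28.5 CPM in the combination, against 22.4 to 24.7 CPM in DMSO, with 2, 2, 0 and 3 of them at 0 in those groups. The 6 immune markers summed to 25.8 to 27.4, 34.0 to 36 and 38.4 to 45 CPM, against 54.1 to 56.8 CPM in DMSO, and the 5 endothelial markers to 11.9 to 17.8, 13.9 to 15.5 and 39.0 to 40.3 CPM, against 21.8 to 24.4 CPM in DMSO. These sums hide opposite changes of single markers. CD14, most of the immune sum, averaged 26.9 CPM in the combination and 52.3 CPM in DMSO, while CSF1R averaged 15.4 and 2.73 CPM. COL1A1, most of the fibroblast sum, averaged 18.0 and 21.5 CPM, while PDGFRA averaged 4.97 and 1.73 CPM and LUM 4.17 and 0 CPM. The part of these markers in the mitochondrial results was not tested. Docetaxel 24 h library B stood apart from its group for the mitochondrial transcripts, and the values with and without it are given where it matters. In bulk RNA, a change in the number of cells of a kind and a change in the RNA per cell cannot be told apart.

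The mitochondrial genome is a small circle of DNA that is transcribed from both strands into long precursors. A nuclear-encoded polymerase, POLRMT, does this with the factors TFAM and TFB2M, and the tRNAs that lie between the other genes are cut out to release the mRNAs and rRNAs. The mRNAs encode core subunits of respiratory complexes I, III and IV and of ATP synthase, whose other subunits come from nuclear genes. Most of the mRNAs then receive a short poly(A) tail from the polymerase MTPAP, and in several that tail completes the stop codon.

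The ends of these mRNAs are shown because capture on oligo-T beads depends on a tail there. Of the 13 mRNA genes as annotated, 7 encoded a complete final codon and 6 ended in a partial stop that the tail completes. MT-ATP6, counted among the 7, shares its last 1 base with MT-CO3. Whether its mature mRNA keeps that base was not tested. The sequences below are the last 24 bases of 5 of the 13 genes, 5′ to 3′ in the sense of the mRNA. They come from the GENCODE release 29 transcripts on GRCh38 (chromosome M). Capitals mark the stop codon as far as the DNA encodes it.
MT-ND1 (chrM:4239-4262, plus strand): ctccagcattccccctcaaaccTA
MT-CO3 (chrM:9967-9990, plus strand): tctccatctattgatgagggtctT
MT-CYB (chrM:15864-15887, plus strand): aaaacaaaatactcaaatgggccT
MT-CO1 (chrM:7422-7445, plus strand): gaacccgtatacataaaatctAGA
MT-ND6 (chrM:14149-14172, minus strand): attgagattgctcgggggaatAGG
MT-ND1 ended in TA, MT-CO3 and MT-CYB in a lone T. MT-CO1 and MT-ND6 ended in AGA and AGG.

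Some genes of this genome share bases, and the shared stretches limit what their counts mean. MT-ATP8 and MT-ATP6, both subunits of ATP synthase read from the same transcript, share 46 bases, in capitals here with 20 bases on either side.
MT-ATP8/MT-ATP6 (chrM:8507-8592, plus strand): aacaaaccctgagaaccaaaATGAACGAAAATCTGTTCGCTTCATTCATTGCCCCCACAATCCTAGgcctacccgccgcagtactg
MT-ND4L/MT-ND4 (chrM:10740-10786, plus strand): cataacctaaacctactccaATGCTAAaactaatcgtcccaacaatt
MT-ND4L and MT-ND4, both subunits of complex I, share 7 bases. How the counting treated reads over such stretches, or reads from the opposite strand, is not given in the sources used here. Reads from a gene and from transcripts of the opposite strand therefore cannot be told apart.

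All 3 classes of mitochondrial transcript took a larger share of the library in each treatment. The 13 mRNAs held 7.17%, 7.0% and 7.70% of counts in the docetaxel 8 h libraries (A, B, C). They held 6.34%, 4.20% and 5.55% at 24 h. In the combination they held 6.65%, 7.43% and 6.08%. In DMSO they held 3.33%, 3.49% and 3.75%. The lowest treated library, docetaxel 24 h B, lay above the highest DMSO library. Group means were 7.29% ± 0.37, 5.36% ± 1.08 and 6.72% ± 0.68, against 3.52% ± 0.21 in DMSO (SD, n = 3 each). That is 2.07, 1.52 and 1.91 times the DMSO share. Without docetaxel 24 h library B, the 24 h difference from DMSO was 2.42 percentage points, compared with 1.84 with it.

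The 2 rRNAs, which form the mitochondrial ribosome's RNA core, took 1.19%, 1.13% and 1.22% of counts after docetaxel for 8 h and 1.12%, 0.754% and 0.997% after 24 h. They took 1.74%, 1.80% and 1.56% in the combination, against 0.631%, 0.616% and 0.683% in DMSO. The combination libraries were the highest of all 12. The 22 tRNAs together took 0.0738% ± 0.0088 of counts at 8 h, 0.0636% ± 0.0127 at 24 h and 0.0690% ± 0.0036 in the combination, against 0.0431% ± 0.0031 in DMSO (SD, n = 3 each). For each class and each treatment, treated and DMSO libraries did not overlap. The exact permutation test gave p = 0.10 (two-sided, n = 3 each), the smallest that 3 libraries against 3 allow, and 0.206 after Benjamini-Hochberg adjustment over the 138 shares and ratios compared.

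**Figure D1:**
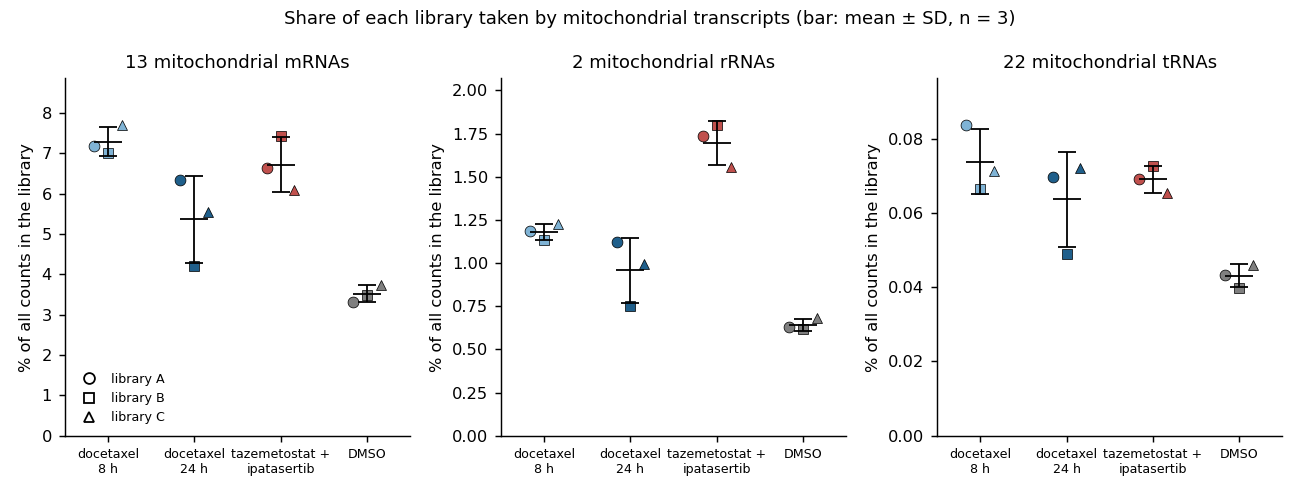
Percentage of all counts in each library that fell in the 13 mitochondrial mRNAs (left), the 2 rRNAs (middle) and the 22 tRNAs (right), with points for libraries A, B and C and bars for the mean ± SD of 3. All treated libraries lie above all DMSO libraries in each panel, and the rRNA share of the combination libraries, 1.56% to 1.80%, is the highest.

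Every mRNA rose in every treatment after scaling. At 8 h of docetaxel all 13 mRNAs and both rRNAs were called higher than DMSO, where 22.5% of all genes tested were. Their log2 fold changes ran from 0.91 to 1.34 for the mRNAs, with a median of 1.18 (all genes: −0.02). At 24 h all 13 and both rRNAs were called higher, with a median of 0.61 for the mRNAs and a range of 0.48 to 0.71 (all genes: 0.01; 20.2% called higher). The libraries of MT-ATP8, MT-ND4L and MT-ND5 at 24 h overlapped DMSO, and those of the other 10 mRNAs did not, where 25.4% of all genes were higher without overlap. In the combination the same call held for 13 of 13 and 2 of 2, with a median of 0.88 for the mRNAs and a range of 0.72 to 1.10 (all genes: 0.01; 31.4% called higher). With library totals in place of TMM, the median of all genes at 8 h moved to −0.18 and that of the 13 mRNAs to 1.02. A change of scaling shifts all genes nearly alike, so the gap between these medians could hardly change and is not a test.

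For their length, the 3 complex IV mRNAs had the highest mean levels of the mRNAs in every group (CPM per kb). MT-CO1, which encodes the catalytic subunit of cytochrome c oxidase, had 24719, 24386 and 27512 CPM at 8 h. It had 20562, 13672 and 18187 CPM at 24 h and 23362, 25203 and 20760 CPM in the combination, against 10106, 11147 and 12062 CPM in DMSO. It was the row with the most counts in every treated library, and ranked 1 or 2 in the DMSO libraries. Its log2 fold changes were 1.20 ± 0.10, 0.65 ± 0.10 and 1.06 ± 0.10 (SE; edgeR adjusted p = 4.0e-09, 2.4e-05 and 7.0e-09). MT-CO2, another catalytic-core subunit, averaged 10273 ± 911, 6555 ± 1340 and 9094 ± 1222 CPM, against 4366 ± 99 CPM in DMSO (SD, n = 3 each). MT-CO3 had the largest change of the mRNAs at both docetaxel times, 1.34 ± 0.09 and 0.71 ± 0.09, and rose by 0.99 ± 0.09 in the combination.

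The ATP synthase mRNAs rose too. MT-ATP6 had 5050, 4503 and 5131 CPM at 8 h, 3753, 2425 and 3179 CPM at 24 h and 4422, 4652 and 3874 CPM in the combination. In DMSO it had 1913, 2060 and 2068 CPM. Its log2 fold changes were 1.28 ± 0.10, 0.63 ± 0.10 and 1.10 ± 0.10, and the last was the largest of any mRNA in the combination. MT-ATP8 was far lower for its length, at 144 ± 15, 112 ± 27 and 127 ± 12 CPM per kb, compared with 76.6 ± 9.9 CPM per kb in DMSO, where MT-ATP6 was at 2957 ± 128 CPM per kb (SD, n = 3 each). The pair comes from the same transcript and shares the bases printed in capitals above, and how overlapping reads were assigned is not given in the sources used here. Its part in the gap between their levels was not tested.

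The 7 complex I mRNAs and the complex III mRNA followed. MT-ND4, the most abundant of complex I, averaged 11889 ± 799, 8038 ± 1835 and 9657 ± 934 CPM, against 5258 ± 369 CPM in DMSO (SD, n = 3 each). MT-ND1 rose by 1.16 ± 0.11, 0.65 ± 0.11 and 0.73 ± 0.11 on the log2 scale, MT-ND2 by 1.19 ± 0.11, 0.60 ± 0.10 and 0.93 ± 0.10, and MT-ND5 by 1.04 ± 0.12, 0.54 ± 0.12 and 0.73 ± 0.12. MT-ND3 rose by 1.09 ± 0.14, 0.62 ± 0.13 and 1.01 ± 0.14, and MT-ND4L by 1.0 ± 0.14, 0.56 ± 0.14 and 0.72 ± 0.14. MT-ND6 is the only mRNA encoded on the other strand, and it rose by 1.13 ± 0.11, 0.48 ± 0.11 and 0.87 ± 0.11. MT-CYB, the mitochondrial subunit of complex III, rose by 1.20 ± 0.10, 0.68 ± 0.10 and 0.77 ± 0.10. The largest adjusted p among the 13 mRNAs was 5.3e-06 at 8 h, 0.0030 at 24 h and 0.00015 in the combination (edgeR).

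**Figure D2:**
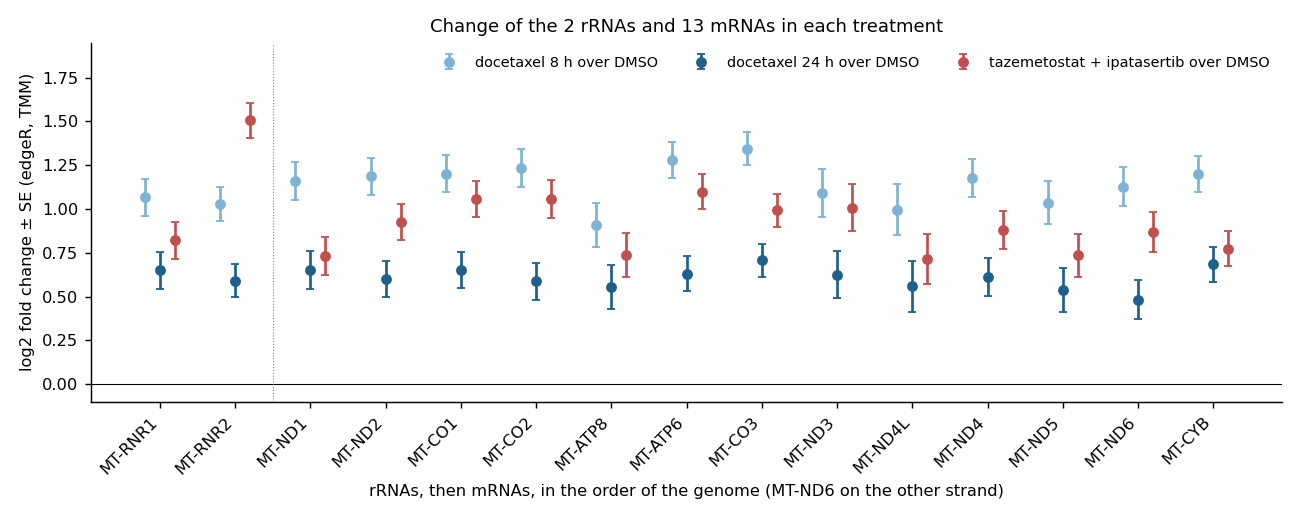
Log2 fold change over DMSO with its SE (edgeR, 12 libraries, TMM) for the 2 rRNAs and then the 13 mRNAs in genome order, at 8 h of docetaxel, 24 h of docetaxel and in the combination. All values are above 0, the 24 h values are the lowest for each mRNA, and MT-RNR2 in the combination, at 1.51, is the highest.

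The docetaxel effect was smaller at 24 h than at 8 h. All 13 mRNAs were lower at 24 h than at 8 h, where 18.3% of all genes were called lower, with a median log2 difference of −0.55 (all genes: 0.01) and a range of −0.65 to −0.35. MT-ATP6 differed by −0.65 ± 0.10 and MT-CO2 by −0.65 ± 0.11 (edgeR adjusted p = 2.3e-05 and 4.9e-05), and MT-ATP8 by −0.35 ± 0.12 (adjusted p = 0.028). Both rRNAs were lower as well, MT-RNR1 by −0.42 ± 0.10 and MT-RNR2 by −0.44 ± 0.10. Libraries of 8 h and 24 h did not overlap for 11 of the 13 mRNAs, while 21.8% of all genes were lower without overlap. Between 10 and 13 mRNAs kept the call as each library was left out in turn. The calls of MT-ND4L and MT-ATP8 were lost with library totals, with nuclear totals and with DESeq2, and that of MT-ND3 with DESeq2. Without docetaxel 24 h library B the differences were −0.26 for MT-ND4L, −0.27 for MT-ND3 and −0.18 for MT-ATP8 (edgeR adjusted p = 0.15, 0.067 and 0.19).

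The mean CPM of each of the 13 mRNAs in the combination lay between its means at 24 h and 8 h of docetaxel. Against 24 h, 8 of the 13 mRNAs were higher, where 32.1% of all genes were called higher, with a median of 0.29 (all genes: 0.00). MT-CO2 and MT-ATP6 led, each at 0.47, and the count was 4 without docetaxel 24 h library B and 5 without combination library B. Against 8 h, 7 of the 13 were lower, where 32.1% of all genes were called lower, led by MT-ND1 and MT-CYB at −0.43 each. That count was 3 with library totals, with nuclear totals, with DESeq2, without docetaxel 8 h library C or without combination library C, and 12 with no filter on low counts. The combination and docetaxel arms differed in plate size, and their comparison shares that limit.

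The rRNAs parted in the combination. MT-RNR2 encodes the 16S rRNA of the large mitochondrial subunit and MT-RNR1 the 12S rRNA of the small subunit, and they are transcribed next to each other. MT-RNR2 had 16158, 16239 and 13950 CPM in the combination, against 5253, 5252 and 5804 CPM in DMSO. MT-RNR1 had 1456, 1382 and 1205 CPM in the combination, against 777, 731 and 779 CPM in DMSO. Both rose without overlap, but MT-RNR2 rose by 1.51 ± 0.10 (edgeR adjusted p = 7.1e-12) and MT-RNR1 by 0.82 ± 0.11 (adjusted p = 4.5e-07). The MT-RNR1 change lay within the range of the mRNAs. With docetaxel the 2 rRNAs moved alike, at 1.03 ± 0.10 and 1.07 ± 0.11 at 8 h and 0.59 ± 0.10 and 0.65 ± 0.11 at 24 h for MT-RNR2 and MT-RNR1 in that order.

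The ratio of MT-RNR2 to MT-RNR1 counts needs no scaling between libraries. It was 11.1, 11.8 and 11.6 in the combination. It was 6.45, 7.12 and 7.29 at 8 h of docetaxel, 6.72, 7.12 and 6.81 at 24 h, and 6.76, 7.19 and 7.46 in DMSO. The combination libraries lay above all others, and the other groups overlapped each other. The combination mean was 1.61 times that of DMSO. Relative to the 13 mRNAs, MT-RNR2 counts stood at 0.240, 0.223 and 0.235 in the combination and at 0.165, 0.155 and 0.161 in DMSO, while MT-RNR1 stood at 0.0203 ± 0.0013 in the combination and 0.0225 ± 0.0017 in DMSO (SD, n = 3 each), with overlap. A fit with the sum of the 13 mRNAs as library size, chosen after seeing the data, put MT-RNR2 higher in the combination by 0.54 ± 0.14 over DMSO, 0.58 ± 0.14 over docetaxel 24 h and 0.72 ± 0.14 over docetaxel 8 h (edgeR adjusted p = 0.00017, 0.00014 and 1.7e-06). MT-RNR1 did not pass that test in any of the 6 comparisons.

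The rRNAs carry no long natural tail, and their runs of A are shown for that reason. Capitals mark the longest run of A in each gene, with 25 bases on either side.
MT-RNR2 (chrM:2432-2488, plus strand): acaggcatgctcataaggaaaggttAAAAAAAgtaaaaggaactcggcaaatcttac
MT-RNR1 (chrM:968-1023, plus strand): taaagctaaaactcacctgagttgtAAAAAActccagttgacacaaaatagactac
MT-RNR2 is 35.1% A and holds 4 runs of at least 6 A, and MT-RNR1 is 33.0% A and holds 1. The 13 mRNAs ranged from 19.6% A in MT-ND6 to 38.6% in MT-ATP8, and their longest runs from 3 to 8 bases. These are features of the letters, and their part in the counts was not tested.

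**Figure D3:**
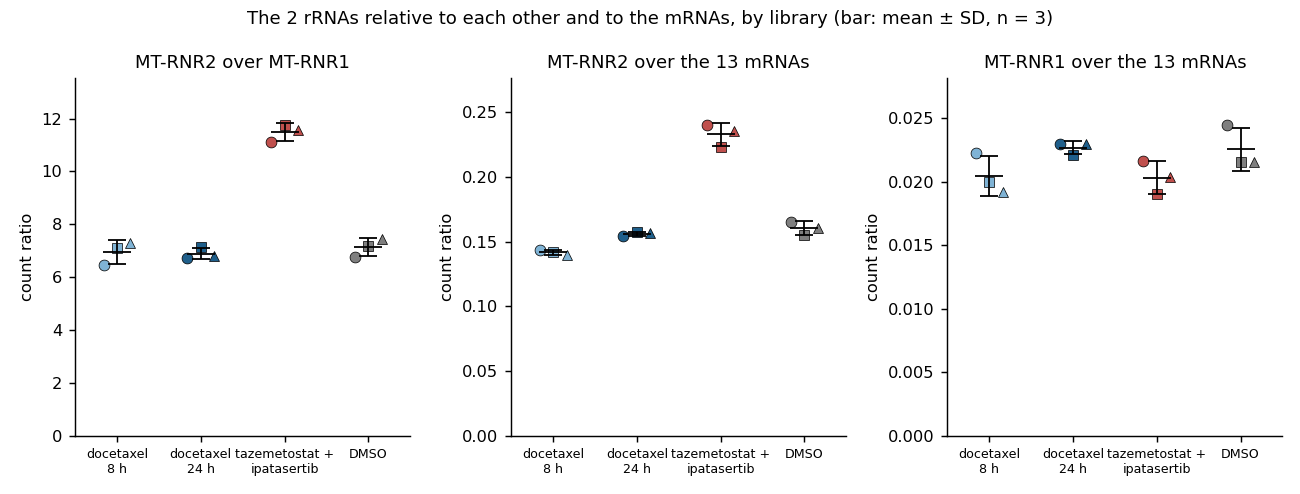
Count ratios by library: MT-RNR2 over MT-RNR1 (left), MT-RNR2 over the summed 13 mRNAs (middle) and MT-RNR1 over the summed 13 mRNAs (right), with points for libraries A, B and C and bars for the mean ± SD of 3. In the left and middle panels the combination libraries stand above all others, at 11.1 to 11.8 on the left, and in the right panel they overlap DMSO.

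The make-up of the mRNAs was compared as the share of each among the 13. Shares of a fixed sum move against each other, so a gain of an abundant member lowers the others. MT-CO1 made up 32.6% ± 0.9, 33.3% ± 0.3 and 34.8% ± 0.2 of mRNA counts at 8 h, at 24 h and in the combination, against 32.7% ± 0.8 in DMSO (SD, n = 3 each). In the combination 8 of 13 shares did not overlap DMSO. CPM, a different measure, did not overlap DMSO for 67.7% of all genes tested, so this count does not stand out. MT-CO1 and MT-ATP6 were higher. MT-ND1, MT-ND5, MT-CYB and MT-ATP8 were lower, as were MT-ND2 and MT-ND4, which turned slightly higher when MT-CO1, MT-CO2 and MT-CO3 were left out of the sum. MT-CYB made up 4.61%, 4.56% and 4.62% of the mRNA counts in the combination, against 5.19%, 5.22% and 5.38% in DMSO. At 24 h it made up 5.44%, 5.52% and 5.45%, above every DMSO library. MT-ND1 made up 3.17%, 3.29% and 3.27% in the combination, against 3.83%, 3.72% and 3.92% in DMSO.

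With docetaxel the shares that did not overlap DMSO were 5 at 8 h (MT-ATP6 higher and MT-ATP8, MT-ND4L, MT-ND5 and MT-ND6 lower) and 3 at 24 h (MT-CYB higher and MT-ND5 and MT-ND6 lower). For 3 libraries against 3 these carry exact permutation p = 0.10 each, the smallest possible, and adjusted p = 0.206. Across all genes tested, CPM did not overlap in either direction for 56% at 8 h, 53.1% at 24 h and 67.7% in the combination. CPM is a different measure from these shares, and in no treatment was the part of the shares without overlap larger. MT-ND6 stood at 0.0184, 0.0185 and 0.0187 of the 12 mRNAs of the other strand at 8 h and 0.0183, 0.0174 and 0.0170 at 24 h, against 0.0195, 0.0197 and 0.0195 in DMSO. In the combination it stood at 0.0200, 0.0173 and 0.0173, on either side of DMSO. Combination library A stood apart for MT-ND4L, with 1.54% of mRNA counts compared with 2.38% and 2.27% in B and C, and for MT-ND5, with 3.53% compared with 4.51% and 4.4%. When the 13 mRNAs served as library size, no mRNA passed the edgeR test in any of the 6 comparisons. That sum holds the tested mRNAs themselves, so their changes centre near 0 in this fit. Its SE ran from 0.13 for MT-CO1 to 0.18 for MT-ATP8 in the combination over DMSO. It therefore cannot decide whether the make-up shifted.

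**Figure D4:**
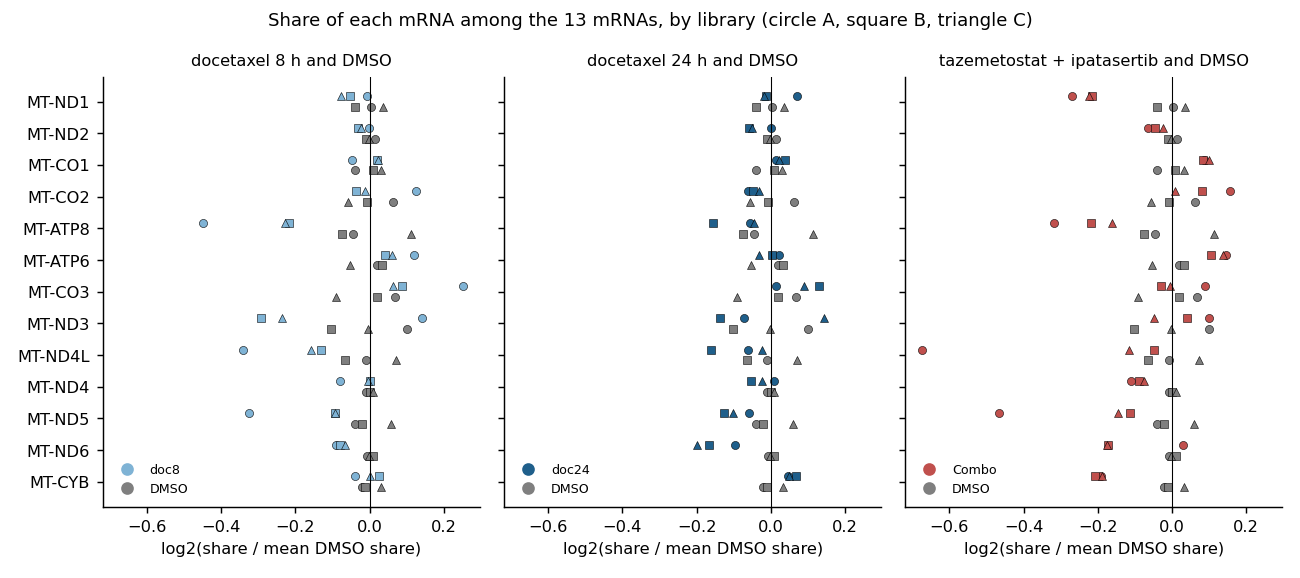
Share of each mRNA among the counts of the 13 mRNAs, as log2 of the share over the mean DMSO share, for each treatment and DMSO, with 1 point per library (circle A, square B, triangle C). MT-ND1 and MT-CYB lie left of DMSO in the combination, and the point farthest left is MT-ND4L in combination library A.

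The tRNA rows were small and uneven. Between 96.7% and 97.9% of tRNA counts in every library fell on the 8 tRNA genes of the light strand, and 80.8% to 87.1% fell on MT-TN and MT-TC alone. These genes and the most counted tRNA of the other strand are printed with the anticodon in capitals, 5′ to 3′ in the sense of the tRNA.
MT-TN (asparagine, chrM:5657-5729, minus strand): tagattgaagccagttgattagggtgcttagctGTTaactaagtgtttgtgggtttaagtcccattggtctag
MT-TC (cysteine, chrM:5761-5826, minus strand): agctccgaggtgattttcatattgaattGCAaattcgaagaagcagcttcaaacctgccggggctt
MT-TP (proline, chrM:15956-16023, minus strand): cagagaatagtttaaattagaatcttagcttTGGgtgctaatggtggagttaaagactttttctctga
MT-TL1 (leucine, chrM:3230-3304, plus strand): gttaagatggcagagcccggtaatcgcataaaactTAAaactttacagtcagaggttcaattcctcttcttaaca
Mature tRNAs are too short and too folded to be well captured by this kind of library, so such rows can hold uncut precursors, and transcripts of the opposite strand if strand was not used in counting. Which of these they hold was not tested.

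Of the 22 tRNAs, 15 passed the filter, and 12 were called higher at 8 h, 12 at 24 h and 8 in the combination, with none lower. Of all genes tested, 22.5%, 20.2% and 31.4% were called higher in that order, and 24.8%, 22.7% and 31.4% lower. MT-TN had 411, 306 and 326 CPM at 8 h, 304, 212 and 329 CPM at 24 h and 336, 339 and 300.4 CPM in the combination, against 198, 174 and 216 CPM in DMSO, and the lowest 24 h library lay below the highest DMSO library. Its log2 fold changes were 0.83 ± 0.12, 0.52 ± 0.12 and 0.73 ± 0.12. MT-TC, its neighbour, rose by 1.01 ± 0.11, 0.68 ± 0.11 and 0.79 ± 0.11. MT-TL1, which lies between MT-RNR2 and MT-ND1, rose by 1.09 ± 0.15, 0.94 ± 0.15 and 0.92 ± 0.15.

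MT-TP lagged in the combination. It had 50.9, 47.8 and 45.6 CPM there, against 37.1, 40.6 and 38.0 CPM in DMSO, and it had 88.3, 74.4 and 87.6 CPM at 8 h and 56.2, 41.0 and 57.1 CPM at 24 h. The combination libraries lay above DMSO by a small margin only, at a log2 fold change of 0.32 ± 0.09 (edgeR adjusted p = 0.0043), compared with 1.11 ± 0.09 at 8 h and 0.42 ± 0.09 at 24 h. Relative to the 13 mRNAs it was lower in the combination by −0.65 ± 0.18 (adjusted p = 0.00039). Rarer tRNAs gave few counts: MT-TL2, a leucine tRNA, had 34, 43 and 27 counts over the 3 libraries of each treatment in that order, against 5 in DMSO, and its log2 fold changes were 2.88 ± 0.57, 2.98 ± 0.55 and 2.55 ± 0.60. MT-TL2, MT-TM, MT-TD, MT-TH and MT-TR had at most 2, 3, 4, 6 and 10 counts in any DMSO library, the last in the deepest of them. They passed the filter on low counts through treated libraries only. A call of lower than DMSO was hardly possible for them, and their calls of higher are not support for a rise of the tRNAs. MT-TF, the phenylalanine tRNA at the start of the heavy-strand transcript, had 0, 2 and 1 counts, against 0 in DMSO, at or under the 3 counts taken as the floor of detection, which cover counting error only. Calls of MT-TG, MT-TM, MT-TR and MT-TH were lost when some single libraries were left out.

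The nuclear genome holds copies of mitochondrial genes, and reads can be assigned to either place. Of 407 such copies in the tables, 6 reached 1 CPM in a group, and 5 of those lie in a block on chromosome 1. MTATP6P1 (chr1:633696-634376, plus strand) is identical to MT-ATP6 at 671 of 681 aligned bases, MTND2P28 (chr1:629640-630683, plus strand) to MT-ND2 at 1025 of 1042, and MTCO1P12 (chr1:631074-632616, plus strand) to MT-CO1 at 1522 of 1542. MTATP6P1 held 9.64% ± 0.40 as many counts as MT-ATP6 at 8 h, 8.84% ± 0.93 at 24 h and 11.2% ± 0.8 in the combination, compared with 9.74% ± 1.61 in DMSO (SD, n = 3 each). MTND2P28 held 7.01% ± 0.19, 7.20% ± 0.41 and 7.02% ± 0.76 of the MT-ND2 counts, compared with 7.11% ± 0.35 in DMSO. MTCO1P12 held 0.384% ± 0.042, 0.315% ± 0.028 and 0.435% ± 0.031 of the MT-CO1 counts, compared with 0.307% ± 0.033 in DMSO. All 6 copies were called higher than DMSO at 8 h and in the combination, and 4 of the 6 at 24 h. Of all genes tested, 22.5% were called higher at 8 h, 31.4% in the combination and 20.2% at 24 h. MTND4P12, MTCO3P12 and MTND1P23 averaged 0.82, 0.42 and 0.28 CPM in DMSO and reached 1 CPM in treated groups only. That choice favoured their calls of higher, which are not support for a rise of the copies. MTATP6P1 rose by 1.27 ± 0.14, 0.50 ± 0.14 and 1.30 ± 0.14, and MTND2P28 by 1.17 ± 0.12, 0.62 ± 0.12 and 0.91 ± 0.12 (log2; largest edgeR adjusted p of this pair 0.0057). MTCO1P12 rose by 1.53 ± 0.15, 0.71 ± 0.15 and 1.56 ± 0.15, and MTND4P12 by 1.40 ± 0.28, 1.23 ± 0.27 and 1.70 ± 0.27. MTCO3P12 and MTND1P23 were at 0.60 ± 0.37 and 0.92 ± 0.39 at 24 h and did not pass (edgeR adjusted p = 0.21 and 0.057). The 24 h libraries overlapped DMSO for MTATP6P1, MTCO1P12 and these last 2 copies. With copies this alike, reads of the copies and of the mitochondrial genes may have been exchanged, and both counts are uncertain.

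Most of the tested nuclear genes for respiratory subunits, mitochondrial ribosomal proteins and protein import were called higher at both docetaxel times, and in most of the lists given here more genes were lower than higher in the combination. The gene lists are counted here beside the median of all genes, which was −0.02 at 8 h, 0.01 at 24 h and 0.01 in the combination. Of all genes tested, 22.5% were called higher and 24.8% lower at 8 h, 20.2% and 22.7% at 24 h, and 31.4% each way in the combination. The 3 treatments share the same DMSO libraries.

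Among the 80 nuclear genes tested for subunits of the respiratory complexes and ATP synthase, 69 were called higher and none lower at 8 h (median log2 fold change 0.39), and 62 were higher and 6 lower at 24 h (median 0.32). In the combination 18 were higher and 22 lower (median −0.0050), and the first count was 10 without combination library A. At 8 h the lower count was 3 with library totals and 2 with nuclear totals. Of the 12 tested subunits of complex IV, 10 were higher at 8 h, 12 at 24 h and 7 in the combination, with none lower. COX7C rose by 0.42 ± 0.08, 0.36 ± 0.08 and 0.49 ± 0.08, and COX6C by 0.46 ± 0.07, 0.44 ± 0.07 and 0.39 ± 0.07. Complex II has no mitochondrial subunit, and its 4 genes were all lower in the combination, SDHA by −0.44 ± 0.04. ATP5F1B, the catalytic subunit of ATP synthase, was at −0.59 ± 0.05 and NDUFS1 of complex I at −0.64 ± 0.05 in the combination, while ATP5ME rose by 1.0 ± 0.14 and NDUFA11 by 0.85 ± 0.13 at 8 h of docetaxel.

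The mitochondrial ribosome, which pairs 78 nuclear-encoded proteins on this list with the 2 rRNAs, showed the same contrast. Of the 78, 72 were higher and none lower at 8 h (median 0.40), 57 were higher and none lower at 24 h (median 0.28), and 7 were higher and 44 lower in the combination (median −0.21). With library totals 1 was lower at each docetaxel time. MRPL18 rose by 0.76 ± 0.06 and 0.56 ± 0.06 with docetaxel and was at −0.11 ± 0.06 in the combination (edgeR adjusted p = 0.11). MRPL19 fell by 0.72 on the log2 scale in the combination (SE 0.06), where MT-RNR2, the rRNA of the same subunit, rose.

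Most genes of mitochondrial transcription were lower in the combination, where the mitochondrial transcripts were higher. None of the 11 was called higher and 8 were called lower there (median −0.42), compared with 6 higher and none lower at 8 h (median 0.25) and 4 higher and none lower at 24 h (median 0.13). With library totals 2 were lower at 8 h. POLRMT, the polymerase, had 73.7, 65 and 68.5 CPM in the combination, against 82.9, 85.2 and 86.2 CPM in DMSO. At 8 h it had 103, 109 and 104 CPM, above DMSO, and its log2 fold changes were 0.31 ± 0.05 at 8 h, −0.06 ± 0.05 at 24 h and −0.30 ± 0.05 in the combination. TFAM, which bends and packages the mitochondrial DNA, had 52.5, 48.4 and 47.9 CPM in the combination, against 86.1, 89.8 and 87.8 CPM in DMSO. That is a log2 fold change of −0.82 ± 0.05 (edgeR adjusted p = 6.4e-12), compared with 0.03 ± 0.05 at both docetaxel times, which did not pass. TFB2M, which opens the promoter, was at 0.07 ± 0.07, 0.41 ± 0.07 and −0.50 ± 0.08. TWNK, the replicative helicase, was at −0.05 ± 0.07, 0.00 ± 0.07 and −0.81 ± 0.07.

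TEFM, the elongation factor, rose by 0.36 ± 0.11 at 8 h and fell by 0.53 on the log2 scale in the combination (SE 0.11). MTERF3, a family member that lowers transcription in mice, rose by 0.53 ± 0.07 and 0.37 ± 0.07 with docetaxel and was at −0.27 ± 0.08 in the combination. MRPL12, a ribosomal protein also reported to bind POLRMT, had the largest rise of the list, 0.96 ± 0.08 at 8 h, and was at −0.50 ± 0.08 in the combination. MTERF1 was at 0.42 ± 0.10, 0.50 ± 0.10 and −0.24 ± 0.11, and the last did not pass. TFB1M, an rRNA methyltransferase, was at 0.25 ± 0.10, 0.10 ± 0.10 and −0.20 ± 0.10, MTERF2 at 0.22 ± 0.14, 0.13 ± 0.14 and −0.22 ± 0.14, and MTERF4 at 0.06 ± 0.07, 0.02 ± 0.07 and −0.42 ± 0.07. Only the first TFB1M value and the last MTERF4 value of these passed the test.

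RNA processing and decay genes split in the same way. Of 46, 30 were higher and 3 lower at 8 h (median 0.27), 19 higher and 4 lower at 24 h (median 0.08), and 3 higher and 35 lower in the combination (median −0.35). With library totals the 8 h counts were 19 higher and 5 lower. LRPPRC and SLIRP form a complex that binds and stabilises mitochondrial mRNAs. LRPPRC had 187, 184 and 175 CPM in the combination and 202, 205 and 186 CPM at 24 h of docetaxel, against 274, 281 and 269 CPM in DMSO. Its log2 fold changes were −0.01 ± 0.05 at 8 h, −0.47 ± 0.05 at 24 h and −0.59 ± 0.05 in the combination. SLIRP rose by 0.81 ± 0.08 and 0.50 ± 0.08 with docetaxel and was at −0.22 ± 0.08 in the combination. MTPAP, the poly(A) polymerase, was at 0.38 ± 0.07, 0.39 ± 0.07 and −0.34 ± 0.07.

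Named genes of RNA decay and tRNA cleavage were also lower in the combination. PNPT1, a ribonuclease, and SUPV3L1, a helicase, form the RNA-degrading complex of the matrix: PNPT1 had 34.1, 38.2 and 32.6 CPM in the combination, against 60.4, 58.5 and 61.3 CPM in DMSO, a change of −0.78 ± 0.06, and SUPV3L1 was at −0.39 ± 0.06. PDE12, which removes poly(A) tails in mitochondria, was at −1.02 ± 0.06 there and at −0.05 ± 0.06 and −0.07 ± 0.06 with docetaxel. TRMT10C, the methyltransferase subunit of mitochondrial RNase P, which cuts tRNA 5′ ends, and ELAC2, which cuts their 3′ ends, were at −0.65 ± 0.06 and −0.45 ± 0.05 in the combination and at 0.39 ± 0.06 and 0.46 ± 0.05 at 8 h. GRSF1 and FASTKD5, which act in the RNA granules, were at −0.27 ± 0.05 and −0.30 ± 0.06 in the combination. MRM1, a methyltransferase of the 16S rRNA, had the largest fall of the list, by 1.28 on the log2 scale (SE 0.08), in the group where that rRNA was highest.

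**Figure D5:**
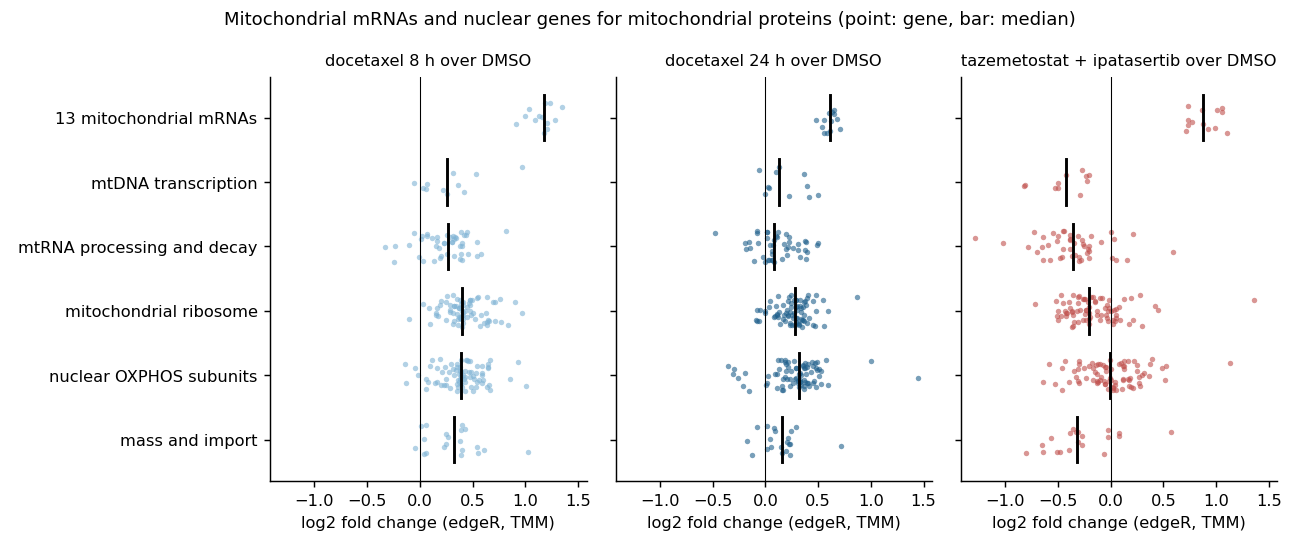
Log2 fold change over DMSO (edgeR, TMM) of each of the 13 mitochondrial mRNAs (top row) and of each tested gene of 5 nuclear lists, for docetaxel 8 h, docetaxel 24 h and the combination, with the median as a bar. With docetaxel all medians lie right of 0, while in the combination the mRNA median is 0.88 and the transcription median is −0.42.

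Regulators of mitochondrial biogenesis gave a mixed picture. PPARGC1A (PGC-1α), a coactivator of mitochondrial genes, had 13.5, 16.1 and 15.3 CPM in the combination, against 0.690, 0.317 and 0.354 CPM in DMSO. It rose by 4.97 ± 0.20 on the log2 scale (edgeR adjusted p = 1.3e-15), and stayed at −0.05 ± 0.34 and 0.28 ± 0.31 with docetaxel. Its relatives went the other way in the combination, PPARGC1B by −0.98 ± 0.11 and PPRC1 by −0.69 ± 0.06. MYC, a transcription factor that drives many nuclear mitochondrial genes, was at −0.07 ± 0.05, −0.13 ± 0.05 and −0.95 ± 0.05. NRF1 was at 0.25 ± 0.07, 0.12 ± 0.07 and −0.16 ± 0.07 and ESRRA at −0.03 ± 0.05, −0.05 ± 0.05 and −0.12 ± 0.05, and NRF1 at 8 h and both genes in the combination passed (edgeR adjusted p = 0.0045, 0.046 and 0.045). Of the 19 tested on this list, 3 were higher and 6 lower at 8 h and 3 higher and 4 lower at 24 h, while the combination had 2 higher and 12 lower.

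Import and mass markers followed the nuclear lists. Of 20, 14 were higher and none lower at 8 h (median 0.32), 11 were higher and 2 lower at 24 h (median 0.16), and 1 was higher and 14 lower in the combination (median −0.32). HSPE1, the mitochondrial co-chaperone, rose by 1.02 ± 0.08 at 8 h, and CS, the citrate synthase often used as a marker of mitochondrial mass, was at 0.01 ± 0.05, −0.12 ± 0.05 and −0.65 ± 0.05. TOMM40, the import channel, was at 0.61 ± 0.05, 0.23 ± 0.05 and −0.80 ± 0.05. Mitochondrial translation factors were 19 higher and 2 lower at 8 h and 9 higher and 10 lower at 24 h. The combination had 3 higher and 24 lower, among which MARS2, the methionyl-tRNA synthetase, was at −1.16 ± 0.07. Of 20 replication and repair genes, 7 were higher and 3 lower at 8 h and 5 higher and 7 lower at 24 h, while the combination had 4 higher and 13 lower. Of 14 cytochrome c and carrier genes, 9 were higher and 1 lower at 8 h, 5 higher and 1 lower at 24 h, and 2 higher and 7 lower in the combination.

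Mitophagy and stress genes changed in both directions in the combination, and PINK1 and GDF15 were among those that rose. PINK1, the kinase that marks damaged mitochondria, had 180, 182 and 188 CPM there, against 79.3, 82.9 and 79.3 CPM in DMSO. That is 1.19 ± 0.05 on the log2 scale, compared with −0.35 ± 0.05 and −0.42 ± 0.05 with docetaxel. GDF15, a secreted factor induced by mitochondrial stress, had 92.1, 85.9 and 100.2 CPM in the combination, against 21.9, 21.4 and 21.6 CPM in DMSO. Across these lists, 9 mitophagy and dynamics genes of 22 were higher and 8 lower in the combination, compared with 6 and 5 at 8 h and 3 and 6 at 24 h. The largest log2 fold change of that list was 7.01 over both DMSO and docetaxel 24 h, as for a gene without counts in either. Such a gene passed the filter through other libraries and could only be called higher, so it is not support for a rise. Protease and stress genes were 7 higher and 11 lower of 21 in the combination, compared with 9 and 3 at 8 h and 10 and 4 at 24 h. Their log2 fold changes in the combination ran from −1.64 to 2.10 (median −0.13). Of all genes tested, 31.4% were called each way there.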

How the data were processed

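Counts per gene were deposited by the authors for 12 libraries of MDA-MB-468 cells, 3 per group, as raw whole numbers. A table of all samples was also deposited by the authors, whose signal values are counts divided by a size factor, and it was used only as a check. Per the submitters' processing notes, fastp, HISAT2 2.0.5, DESeq2 and hg38 were used, and neither the counter nor its annotation or use of strand is stated there. RNA was selected with oligo-T beads, per the labels' protocols.

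Counts were fitted with edgeR 4.0.16 (limma 3.58.1, R 4.3.3) in a quasi-likelihood model of all 12 libraries with TMM scaling and a minimum count of 10, and p-values were adjusted over 17780 genes. The script was tested on simulated data. SE is the absolute log2 fold change over the root of F. Shares and ratios were compared with two-sided exact permutation tests. Genes and sequences were taken from GENCODE release 29 on GRCh38, by symbol. Named genes were every mitochondrial row, the transcription list, a fixed set of RNA processing and biogenesis genes, and up to 3 members of each other list with the largest called change at 5 CPM or more. The members and lists were chosen with earlier results of these data known. Alternatives were other scalings, no filter, DESeq2 1.42.0, the 2 groups alone, a replicate block, other denominators and leaving out each library.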

Additional observations from a re-analysis of the deposited data

Results flagged for a closer look

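The docetaxel effect over DMSO differed between 24 h and 8 h for 20 mitochondrial genes, by edgeR's test of the difference itself with Benjamini-Hochberg adjustment over all genes. Those tested were 13 mRNAs, 2 rRNAs and 15 tRNAs. Of all 17780 genes tested, 2947 were called higher and 3261 lower at 24 h than at 8 h. Because both effects use the same DMSO libraries, the difference is that between the 24 h and 8 h libraries, on the log2 scale. Among the complex IV mRNAs it was −0.55 for MT-CO1, −0.65 for MT-CO2 and −0.64 for MT-CO3. For ATP synthase it was −0.65 for MT-ATP6 and −0.35 for MT-ATP8, and for MT-CYB it was −0.52. Among the complex I mRNAs it was −0.51 for MT-ND1, −0.59 for MT-ND2, −0.47 for MT-ND3, −0.56 for MT-ND4, −0.44 for MT-ND4L, −0.50 for MT-ND5 and −0.64 for MT-ND6. The rRNAs differed by −0.42 for MT-RNR1 and −0.44 for MT-RNR2. Among the tRNAs it was −0.30 for MT-TN, −0.33 for MT-TC, −0.69 for MT-TP and −0.80 for MT-TE, and MT-TD was higher at 24 h by 1.37 on few counts. MT-TD had at most 7 counts in any 8 h library and passed the filter through 24 h and combination libraries only. A call of lower at 24 h was hardly possible for it, so its call is not support for a difference. Without docetaxel 24 h library B the calls of 6 genes were lost, with differences of −0.26 for MT-ND4L, −0.27 for MT-ND3, −0.18 for MT-ATP8, −0.14 for MT-TN, −0.17 for MT-TC and −0.73 for MT-TE. With library totals, with nuclear totals and with DESeq2 the calls of MT-ND4L, MT-ATP8, MT-TN and MT-TC were lost, with DESeq2 also those of MT-ND3 and MT-TD, and with the 2 groups alone that of MT-TN. MT-TD lost its call with no filter and with the replicate block too. The calls of MT-ND3, MT-TN and MT-TC were lost without docetaxel 8 h library A (−0.32, −0.17 and −0.20), and those of MT-ND4L, MT-ATP8 and MT-TE without library C (−0.37, −0.27 and −0.54). The call of MT-TE was lost without docetaxel 24 h library C (−0.67). That of MT-TD was lost without any one of docetaxel 8 h libraries A and B and 24 h libraries A and C, with differences of 1.03 to 1.28.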

How the results depend on the processing

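All 13 mRNAs stayed higher than DMSO in each treatment under the alternative scalings, filter, tests and left-out libraries, with 1 exception. In the fit with the 13 mRNAs as library size, whose sum holds them, none passed. Their median log2 fold changes there were −0.03 at 8 h, −0.02 at 24 h and −0.09 in the combination. With library totals, all genes called at 8 h of docetaxel over DMSO were 2288 higher and 6782 lower, and between 24 h and 8 h 5387 higher and 1659 lower. The list counts then were 2 transcription genes lower, 19 processing genes higher and 5 lower, and 3 respiratory-subunit genes lower at 8 h, 1 ribosomal protein gene lower at each docetaxel time, and 3 mRNAs lower in the combination than at 8 h. With nuclear totals, 4631 genes were higher and 1992 lower between 24 h and 8 h, 1 ribosomal protein gene and 2 respiratory-subunit genes were lower at 8 h, 2 processing genes were lower at 24 h, and 3 mRNAs were lower in the combination than at 8 h. With no filter 12 mRNAs were lower in the combination than at 8 h, and with DESeq2 3 were. Respiratory-subunit genes lower at 8 h numbered 1 with no filter, with the 2 groups alone and with the replicate block. As shares of nuclear counts, the differences from DMSO were 4.30 points for mRNAs and 0.620 for rRNAs at 8 h, and 1.18 for rRNAs and 0.0305 for tRNAs in the combination. Without MT-CO1, MT-CO2 and MT-CO3 in the mRNA sum, MT-RNR2 over mRNA differed by −0.139 at 8 h and 0.639 in the combination over DMSO, and in the combination by 0.653 over 24 h and 0.778 over 8 h. The shares of MT-ND2 and MT-ND4 then turned to 0.0569 and 0.00960 in the combination over DMSO, and MT-ND4 to 0.00787 over 24 h. The cause was not tested. MT-TD at 8 h ran from −0.27, without docetaxel 8 h library C, to 0.80, without library B. With each library left out in turn, mRNAs higher in the combination than at 24 h numbered 4 to 11, mRNAs lower than at 8 h 3 to 9, processing genes lower at 24 h 1 to 3, respiratory-subunit genes lower at 8 h 0 to 1 and higher in the combination 10 to 18. The letters did not pair the libraries: same-letter correlations ran from −0.134 to 0.143, and the replicate block left 13 mRNAs higher than DMSO in each treatment, while MT-TD between 24 h and 8 h and MT-TR between the combination and 8 h lost their calls. Of the 22 tRNA genes, 7 did not pass the filter on low counts.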
